A study of Mus musculus with 3 samples.

Results

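The genes described here make and sulfate chondroitin sulfate, the sugar chain that cartilage proteoglycans carry, and were followed in the stromal cells of young ectopic masses. Chosen by symbol, they were 10 of the 31053 genes counted, and all 10 were found: *Xylt1*, *Xylt2*, *Csgalnact1*, *Chsy1*, *Chst3*, *Chst11*, *Papss1*, *Papss2*, *Slc26a2* and *Ugdh*. In stromal cells 9 of them reached 5 CPM, the UMIs (counted molecules) of a gene for every 1000000 UMIs summed, and *Chst3* did not. In the model used, Matrigel was implanted under the abdominal skin of female CD-1 mice aged 6 to 8 weeks, and the masses were taken on day 5 for single-cell RNA sequencing. Matrigel-only mice received Matrigel without growth factor and no oral agent. Vehicle mice received Matrigel with rhBMP2, which starts ectopic cartilage and bone formation, and oral corn oil/DMSO. Palo mice received the same rhBMP2 mixture and oral palovarotene, a retinoic acid receptor γ agonist, at 4 mg/kg. Vehicle and Palo therefore shared rhBMP2 and differed in the drug, whereas Matrigel-only lacked both rhBMP2 and the oral treatment. Each group was 1 library, so no spread between animals could be measured and no test between groups was possible. All intervals below are 95% intervals for counting error alone.

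Chondroitin sulfate is built on a serine of a core protein in the Golgi. Xylosyltransferases start a short linker, chain enzymes add alternating glucuronic acid and N-acetylgalactosamine from UDP sugars, and sulfotransferases place sulfate on the N-acetylgalactosamine. The sulfate donor, PAPS, is made in the cytosol from sulfate that transporters bring into the cell. Chondrocytes have a high demand for sulfate because aggrecan (*Acan*), the main proteoglycan of cartilage, carries many such chains, and inherited defects of *SLC26A2*, *PAPSS2*, *CHST3*, *CHSY1* and *XYLT1* cause skeletal dysplasias in humans.

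Stromal cells were those with at least 1% of their UMIs from *Col1a1*, *Col1a2*, *Col3a1*, *Dcn* and *Lum*. Matrigel-only had 2085 of them among 8728 cells, Vehicle 1373 among 5478 and Palo 1184 among 7297. Their median depths were 9082, 17114 and 12955 UMIs a cell. Cells just below the limit, at 0.5 to 1%, numbered 56, 52 and 10, and cells just above it, at 1 to 2%, numbered 38, 99 and 8. All 7 stromal markers listed were detected in these cells of each library, but 5 of them had chosen the cells. Of the others, *Pdgfra* had 246, 89.2 and 205 CPM and *Prrx1* had 725, 373 and 734 CPM. In the same cells 6 macrophage markers summed to 398, 110 and 290 CPM. The whole libraries held 44252421, 46317250 and 46901673 UMIs, and pairs of libraries shared 11 to 21 barcodes. In Vehicle, 779 stromal cells had at least 1 *Acan* UMI and 594 had none, whereas 1 cell in Matrigel-only and 4 in Palo had one. The sum of 5 chondrocyte markers, *Acan* among them, was 5905 CPM in the *Acan*-positive cells, 243 CPM in the *Acan*-negative cells, 54.1 CPM in Matrigel-only and 60.0 CPM in Palo. The sum of 3 osteoblast markers was 1213, 369, 1.30 and 1.89 CPM in that order. Across the *Acan* split this sum followed mainly *Ibsp*, at 1100 CPM with and 281 CPM without *Acan*. *Sp7* was nearer level, at 112 and 87.2 CPM, and *Bglap* had 0 and 2 UMIs. The part of osteoblast genes in the values below was not tested.

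Of the members whose RefSeq promoters were used, 3 stood at least 2-fold higher in Vehicle than in Matrigel-only. The 250 bases before the start sites of these 3 are shown for that reason alone, since their courses across the *Acan* split differed. Sequences are from GRCm38.p6 (mm10), plus strand, in lower case with capitals for ACGTG, the core of hypoxia response elements, or AGGTCA, the core of retinoid receptor elements, searched on both strands.
*Chsy1*, chr7:66109242-66109491: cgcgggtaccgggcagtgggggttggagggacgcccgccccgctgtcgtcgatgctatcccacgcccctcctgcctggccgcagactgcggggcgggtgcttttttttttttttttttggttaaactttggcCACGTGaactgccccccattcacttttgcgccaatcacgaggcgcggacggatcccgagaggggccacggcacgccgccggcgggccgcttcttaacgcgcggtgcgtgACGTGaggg
*Chst11*, chr10:82985247-82985496: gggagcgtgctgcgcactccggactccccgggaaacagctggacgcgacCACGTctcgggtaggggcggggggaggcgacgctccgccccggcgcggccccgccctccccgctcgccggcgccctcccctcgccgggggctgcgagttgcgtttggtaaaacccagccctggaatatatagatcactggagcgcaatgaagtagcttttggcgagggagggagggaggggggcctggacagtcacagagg
*Papss2*, upstream start, chr19:32595465-32595714: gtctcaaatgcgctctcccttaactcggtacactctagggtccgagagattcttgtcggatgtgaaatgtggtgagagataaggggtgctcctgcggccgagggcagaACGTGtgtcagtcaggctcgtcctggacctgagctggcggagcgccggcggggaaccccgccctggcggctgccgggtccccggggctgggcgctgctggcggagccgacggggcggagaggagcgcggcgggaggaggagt
*Papss2*, downstream start, chr19:32619755-32620004: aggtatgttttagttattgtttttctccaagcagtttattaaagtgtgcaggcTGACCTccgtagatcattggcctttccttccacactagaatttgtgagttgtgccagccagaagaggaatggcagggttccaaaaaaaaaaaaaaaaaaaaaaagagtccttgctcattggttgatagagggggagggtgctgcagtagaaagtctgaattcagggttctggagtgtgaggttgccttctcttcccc
ACGTG lay at -118 (other strand), -117 and -9 of *Chsy1*, counted back from the start site, at -201 (other strand) of *Chst11* and at -142 of the upstream *Papss2* start. It was also present in 16.6% of the 32851 promoters of this length, so its presence here is a description of the letters only. AGGTCA was read at -197 of the downstream *Papss2* start on the other strand, and 14% of promoters held it. Bases just after the upstream *Papss2* start were not found in the annotated transcripts of the gene, so that start is less certain. Of 2 SOX letters searched, ACAATG (10.7% of promoters) and ACAAAG (16.5%), neither was in these 4 windows. They occurred in *Xylt2* and *Chst3*, respectively, while the *Papss1* and *Ugdh* windows held none of the 4 motifs.

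The libraries were compared to ask how the enzymes stood in tissue exposed to rhBMP2, with and without palovarotene. The genes at least 2-fold higher in Vehicle than in Matrigel-only were *Xylt1*, *Chsy1*, *Chst11*, *Papss2* and *Slc26a2*. They were 5 of 9 genes at 5 CPM or more, where 5.52% of the 10755 genes measured stood as high, and 0 of 9 were 2-fold lower, beside 10.8% of genes. The median log2 ratio of the 9 was 1.13, beside -0.04 for all genes. Against Palo, 5 of 9 were again at least 2-fold higher in Vehicle and 0 were lower, with 5.78% of 10579 genes higher and 7.63% lower, and a median of 1.24 beside -0.01. The genes past 2-fold were those named above, but both comparisons use the Vehicle library. Between Palo and Matrigel-only 0 of 9 passed 2-fold in either direction, where 0.793% of 10466 genes were higher and 2.58% lower. With shares that small, 0 of 9 says nothing particular about the members. All 9 log2 ratios of Palo over Matrigel-only lay from -0.53 to 0.31. With 1 library a group, a difference between conditions and a difference between libraries cannot be told apart.

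**Figure D1:**
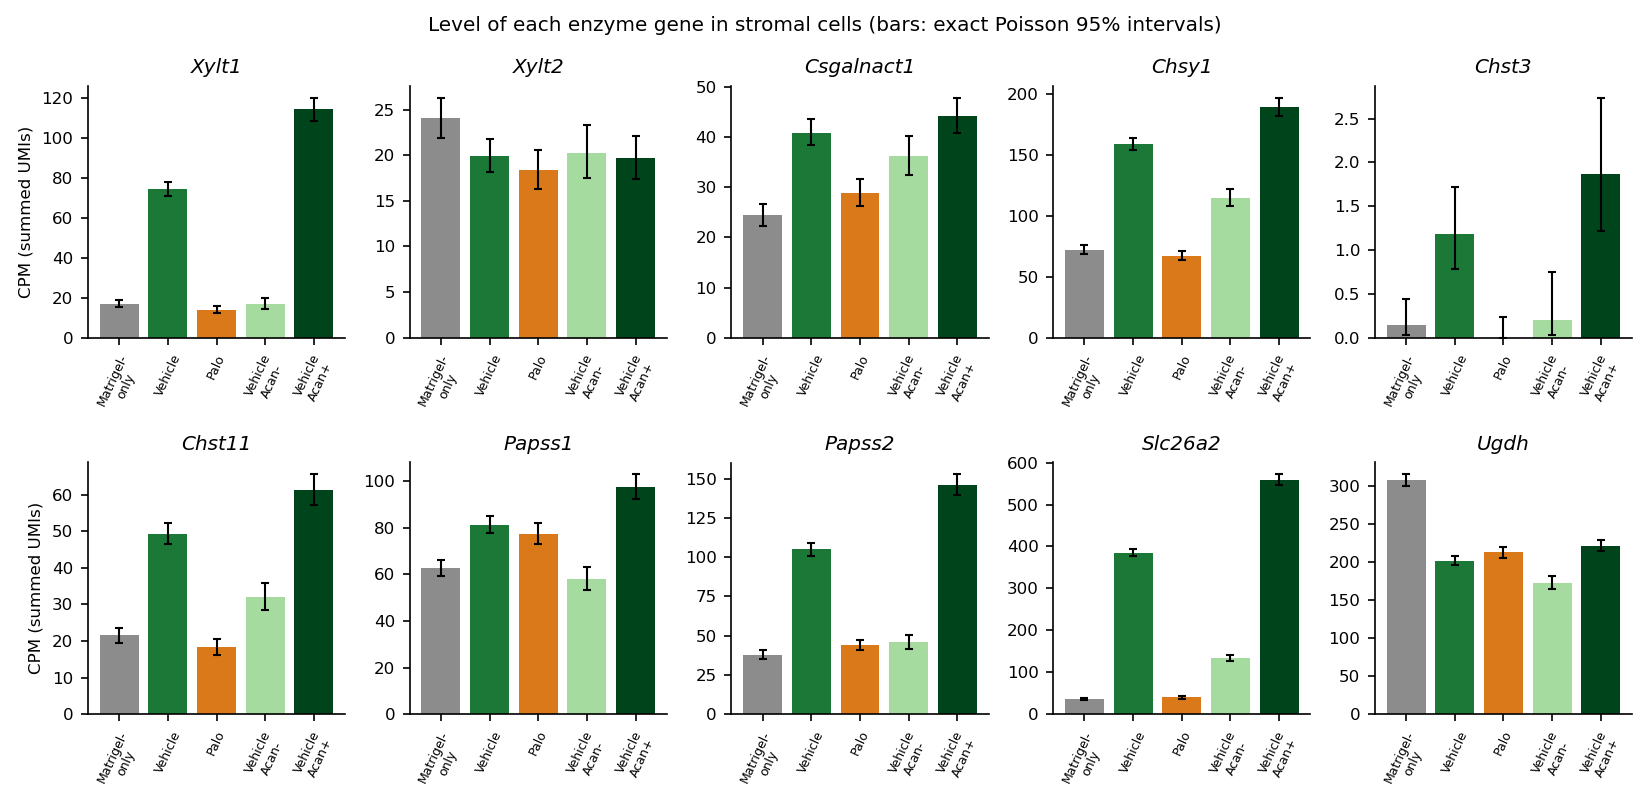
Level of each enzyme gene in stromal cells, in CPM of summed UMIs on axes starting at 0, for the 3 libraries and the Vehicle cells without and with an *Acan* UMI. Error bars are exact Poisson 95% intervals. *Slc26a2* stood at 36.0 CPM in Matrigel-only, 40.1 in Palo and 385 in Vehicle, and at 559 in the *Acan*-positive cells.

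The linker enzymes were split by paralogue. *Xylt1* (chromosome 7, 117380979 to 117673580 on mm10), which encodes xylosyltransferase 1, had 17.0 CPM in Matrigel-only, against 74.6 in Vehicle and 14.0 in Palo. Vehicle thus stood above both other libraries, by a log2 ratio of 2.13 (1.96 to 2.30) over Matrigel-only and 2.42 (2.21 to 2.63) over Palo. *Xylt2*, which encodes the paralogue used in most tissues, had 24.0, 19.9 and 18.4 CPM in the same order. Its log2 ratio of Vehicle over Palo was 0.12 (-0.10 to 0.33), so the interval held 0. *Xylt1* accordingly made up 41.4% (38.0 to 44.9) of the pair's UMIs in Matrigel-only, against 78.9% (77.2 to 80.6) in Vehicle and 43.2% (38.8 to 47.6) in Palo. Shares of a pair are compared between groups only, since capture may differ between the paralogues.

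The chain enzymes were higher in Vehicle by smaller ratios. *Chsy1*, chondroitin sulfate synthase 1, which extends the repeating disaccharide, had 72.2, 159 and 67.2 CPM in Matrigel-only, Vehicle and Palo. Its log2 ratio was 1.13 (1.05 to 1.22) over Matrigel-only and 1.24 (1.14 to 1.34) over Palo. *Csgalnact1*, the N-acetylgalactosaminyltransferase that commits a linker to chondroitin, had 24.4, 40.9 and 28.8 CPM. It stayed within 2-fold, at log2 ratios of 0.75 (0.59 to 0.91) and 0.51 (0.34 to 0.67). Antisense genes overlap *Csgalnact1* (*1700125H03Rik*, *Gm15656*), *Chsy1* (*Gm26827*) and *Chst11* (*1700025N21Rik*), and the strand setting of the counting was not given in the sources used here.

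The sulfotransferases were represented by *Chst11*, which encodes the main chondroitin 4-O-sulfotransferase of cartilage, and *Chst3*, a chondroitin 6-O-sulfotransferase. *Chst11* had 21.5, 49.3 and 18.3 CPM in Matrigel-only, Vehicle and Palo, a log2 ratio of 1.20 (1.04 to 1.36) over Matrigel-only and 1.43 (1.25 to 1.62) over Palo. *Chst3* was found as 3 UMIs in Matrigel-only, against 28 in Vehicle and 0 in Palo, where the exact Poisson upper limit was 0.233 CPM. At 1.19 CPM in Vehicle stroma it was no higher than in Vehicle macrophages, at 1.72 CPM. With so few UMIs, no difference between groups is drawn from it. *Chst12*, a paralogue of *Chst11* with the same linkage, had 80.9, 70.6 and 88.0 CPM, so *Chst11* made up 21.0% (19.3 to 22.8), 41.1% (39.3 to 43.0) and 17.2% (15.4 to 19.1) of the UMIs of those paralogues.

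The largest ratio among the members belonged to sulfate uptake. *Slc26a2*, which encodes the sulfate transporter of the plasma membrane mutated in diastrophic dysplasia, had 36.0 CPM in Matrigel-only, against 385 in Vehicle and 40.1 in Palo. Vehicle was higher than Matrigel-only by a log2 ratio of 3.42 (3.31 to 3.53), or 10.7-fold, and higher than Palo by 3.26 (3.15 to 3.38), or 9.60-fold. The 2 low libraries were close, at a log2 ratio of 0.16 (-0.001 to 0.31) for Palo over Matrigel-only. *Papss2*, the PAPS synthase of cartilage, had 37.9, 105 and 44.1 CPM, with log2 ratios of 1.47 (1.35 to 1.59) over Matrigel-only and 1.25 (1.13 to 1.37) over Palo. *Papss1*, the paralogue found in most tissues, had 62.5, 81.3 and 77.4 CPM. Its log2 ratio of Vehicle over Palo was 0.07 (-0.03 to 0.18). *Papss2* made up 37.8% (35.6 to 39.9) of the PAPS synthase UMIs in Matrigel-only, against 56.3% (54.9 to 57.8) in Vehicle and 36.3% (34.1 to 38.5) in Palo.

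*Ugdh*, which encodes UDP-glucose dehydrogenase and so supplies glucuronic acid for chondroitin, heparan sulfate and hyaluronan, had another order. It had 308 CPM in Matrigel-only, against 202 in Vehicle and 213 in Palo, and both rhBMP2 libraries stood below Matrigel-only. The log2 ratios were -0.61 (-0.66 to -0.55) for Vehicle and -0.53 (-0.59 to -0.47) for Palo, while Vehicle and Palo differed by -0.08 (-0.14 to -0.01). *Ugdh* overlaps *Gm43552* on the same strand, so reads of the shared stretch are uncertain.

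**Figure D2:**
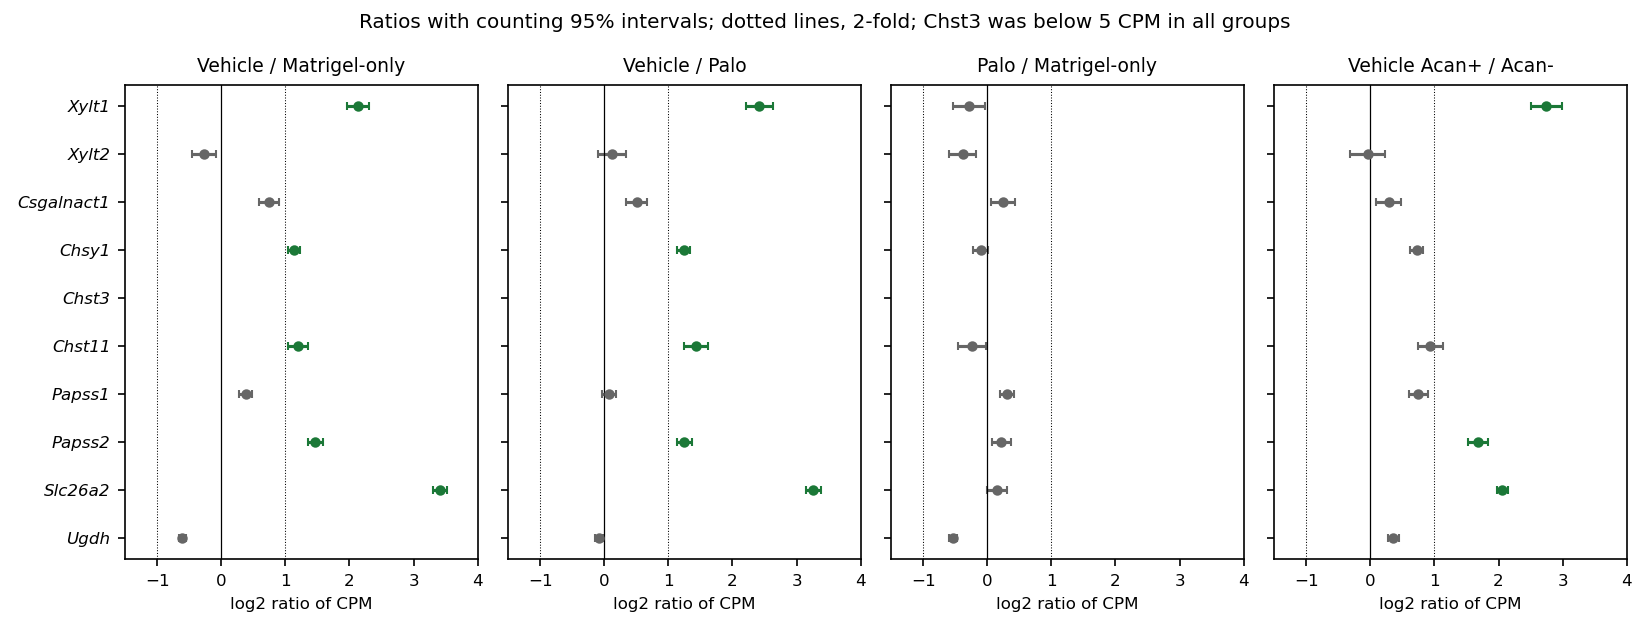
Log2 ratio of CPM for each enzyme gene in 4 comparisons, with conditional binomial 95% intervals for counting error; dotted lines mark 2-fold and green points lie past it. In the panel of Palo over Matrigel-only all 9 points lie between the dotted lines, from -0.53 to 0.31. Few of all genes measured passed 2-fold there, 0.793% higher and 2.58% lower.

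The share of cells with a UMI was compared after thinning each cell to 3100 UMIs, because the libraries differed in depth. *Slc26a2* was found in 10.7% of Matrigel-only cells (9.38 to 12.2), 50.4% of Vehicle cells (47.6 to 53.1) and 12.1% of Palo cells (10.3 to 14.2). Without thinning the shares were 27.0, 76.3 and 37.5%. In macrophages of the same libraries the thinned shares were 14.0, 15.8 and 12.5%, at median depths of 2896, 3525 and 3879 UMIs before thinning, so the stromal shares of Matrigel-only and Palo were no higher than those of macrophages. *Xylt1* was found in 5.15, 17.9 and 4.15% of thinned stromal cells, and in 1.64, 4.41 and 2.44% of macrophages. *Papss2* was found in 10.8, 22.5 and 11.9% of thinned stromal cells and *Chsy1* in 18.7, 37.0 and 18.1%. The number of the 10 enzyme genes expected in a thinned stromal cell averaged 1.37 for Matrigel-only, 2.25 for Vehicle and 1.28 for Palo, with SDs of that expectation over cells of 0.60, 1.10 and 0.52. Thinning left out 207, 70 and 54 shallower stromal cells and 2524, 920 and 1157 macrophages.

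The Vehicle stroma was then divided by *Acan* to ask which members stood apart in the cells with the cartilage proteoglycan. The genes at least 2-fold higher in the *Acan*-positive cells were *Xylt1*, *Slc26a2* and *Papss2*, 3 of 9, and 0 of 9 were lower, where 3.02% of 10414 genes were higher and 4.62% lower. The 2 sets had median depths of 17327 and 16422.5 UMIs a cell. *Xylt1* had 17.1 CPM without and 114 CPM with *Acan*, a log2 ratio of 2.75 (2.51 to 2.99). *Slc26a2* had 134 and 559 CPM, a log2 ratio of 2.06 (1.97 to 2.14). *Papss2* had 45.6 and 146 CPM, a log2 ratio of 1.68 (1.53 to 1.83). These genes of the linker, sulfate uptake and PAPS synthesis thus formed the upper end of the list.

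The other members differed less between the same cells. *Chst11* had 32.1 CPM without and 61.3 CPM with *Acan*, a log2 ratio of 0.93 (0.74 to 1.13) that passed 1 under other splits, at 1.09 with at least 3 *Acan* UMIs and 1.07 after thinning. *Papss1* had 58.0 and 97.5 CPM (log2 ratio 0.75, 0.60 to 0.89), and *Chsy1* had 115 and 189 CPM (0.72, 0.62 to 0.82). *Ugdh* had 173 and 222 CPM (0.36, 0.27 to 0.45). *Csgalnact1* had 36.2 and 44.2 CPM (0.29, 0.10 to 0.48), and *Xylt2* had 20.3 and 19.7 CPM (-0.04, -0.31 to 0.23). The interval of *Xylt2* alone among the 9 held 0. *Chst3* had 2 UMIs without and 26 with *Acan*, a 9.03-fold difference in CPM that is not on the log2 scale. Its interval, on the log2 scale, ran from 1.18 to 6.29. The 1.87 CPM of *Chst3* with *Acan* was near the 1.72 CPM of Vehicle macrophages.

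In cells with 1 or 2 *Acan* UMIs, 105 of the 779, *Slc26a2*, *Xylt1* and *Papss2* stood nearer to cells without *Acan* than to cells with 3 or more. *Slc26a2* had 176 CPM (157 to 196) in them, beside 134 CPM (127 to 142) at 0 and 617 CPM at 3 or more *Acan* UMIs. It was thus higher than in cells without *Acan* beyond counting error. *Xylt1* had 25.3, 17.1 and 128 CPM in the order 1 to 2, 0, and 3 or more, and *Papss2* had 55.6, 45.6 and 160 CPM. None of the 9 members stood 2-fold apart between cells with 1 or 2 and cells with 0 *Acan* UMIs, where 1.03% of 10334 genes were higher and 1.42% lower. With shares that small, this count says nothing particular about the members. Vehicle macrophages, which should lack aggrecan, had an *Acan* UMI in 2.64% (1.81 to 3.70) of thinned cells and 4.07% of unthinned cells, and the part of such background in the cells with 1 or 2 *Acan* UMIs was not tested.

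Stromal cells without *Acan* in Vehicle were set against the other libraries, in which hardly any cell had *Acan*. *Slc26a2* was the 1 of 9 members at least 2-fold higher in these cells than in Matrigel-only, where 3.8% of 10645 genes were higher and 8.28% lower, and 0 were lower. It was likewise the 1 of 9 at least 2-fold higher than in Palo, where 4.09% of 10468 genes were higher and 5.14% lower, and 0 were lower. Its log2 ratios were 1.90 (1.77 to 2.03) over Matrigel-only and 1.74 (1.61 to 1.88) over Palo. *Xylt1* did not differ from Matrigel-only beyond counting error, at 17.1 and 17.0 CPM and a log2 ratio of 0.01 (-0.27 to 0.28). *Papss2* was near Palo, at 0.05 (-0.13 to 0.22), and above Matrigel-only by 0.27 (0.09 to 0.44). *Chsy1* and *Chst11* stood between, at 0.67 (0.55 to 0.78) and 0.58 (0.36 to 0.79) over Matrigel-only. *Ugdh* was further below Matrigel-only than in the whole Vehicle stroma, at -0.83 (-0.91 to -0.75), and *Papss1* was below Palo, at -0.41 (-0.56 to -0.27).

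Stromal cells were next sorted by 3 cartilage genes, from those with neither *Sox9*, the transcription factor of chondrocytes, nor *Acan*, through *Sox9* without *Acan* and *Acan* without *Col2a1*, to *Acan* with *Col2a1*, the collagen of cartilage. In Vehicle these steps held 203, 391, 372 and 407 cells. In Matrigel-only 1591 cells had neither gene and 493 had *Sox9* alone, and in Palo 775 and 405. *Sox9* was found more readily in deeper cells, with median depths of 12489 UMIs in Vehicle cells with neither gene and 18052 in those with *Sox9* alone.

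In Vehicle, 1 of 9 members was at least 2-fold higher at the step to *Sox9* (*Slc26a2*), where 1.84% of 10429 genes were higher and 3.4% lower. The step to *Acan* had 2 (*Slc26a2* and *Xylt1*), where 1.87% of 10364 genes were higher and 1.79% lower. The step to *Col2a1* had 4, with *Papss2* and *Chst11* added, where 1.96% of 10307 genes were higher and 2.83% lower. No member was 2-fold lower at any step in Vehicle. The step to *Sox9* had 1 of 9 higher in Matrigel-only (*Csgalnact1*, beside 2.7% of genes higher and 2.27% lower) and 0 in Palo (beside 0.562% and 1.11%).

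Between libraries at the same step, *Slc26a2* was the 1 member of 9 at least 2-fold higher in Vehicle with *Sox9* and no *Acan*. The background was 3.15% of genes higher and 8.49% lower than in Matrigel-only, and 4.36% higher and 5.89% lower than in Palo. With neither gene, 0 of 9 passed 2-fold in Vehicle over Matrigel-only (3.68% of genes higher, 6.58% lower) or over Palo (3.6% and 3.39%). Palo over Matrigel-only had 0 of 9 both with *Sox9* (0.861% of genes higher, 3.03% lower) and with neither gene (1.03% and 2.51%). Cells of the same step were not alike between libraries. With *Sox9* and no *Acan*, *Sox9* had 286 CPM in Vehicle, 185 in Matrigel-only and 148 in Palo. *Col2a1*, not used for the steps without *Acan*, had 28.3 CPM in those Vehicle cells and 0 UMIs in those of the other libraries. The part of these differences in the ratios was not tested.

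*Slc26a2* was higher at each step in Vehicle, at 64.9 CPM (55.3 to 75.6), 159 CPM (150 to 169), 356 CPM (342 to 371) and 741 CPM (722 to 761). No step's interval overlapped the next. In Matrigel-only it had 36.9 CPM without and 34.0 CPM with *Sox9*, and in Palo 40.7 and 38.7 CPM, so *Sox9* detection went with no higher level in those libraries. Among cells with *Sox9* and no *Acan*, Vehicle was higher than Matrigel-only by a log2 ratio of 2.23 (2.01 to 2.45) and higher than Palo by 2.04 (1.83 to 2.24). Among cells with neither gene the log2 ratios were 0.82 (0.55 to 1.07) and 0.67 (0.40 to 0.94).

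*Xylt1* and *Papss2* had a later step. *Xylt1* had 15.4 CPM and 17.6 CPM in the Vehicle cells without *Acan*. It then had 57.4 CPM with *Acan* but no *Col2a1*, and 166 CPM with *Acan* and *Col2a1*. The log2 ratio between *Sox9*-positive and double-negative cells was 0.19 (-0.33 to 0.75), and the next were 1.70 (1.41 to 2.00) and 1.53 (1.36 to 1.70). *Papss2* had 44.7, 45.9, 72.3 and 212 CPM, with log2 ratios of 0.04 (-0.27 to 0.36), 0.65 (0.45 to 0.86) and 1.55 (1.40 to 1.70). In both genes the *Sox9*-positive cells of Vehicle were within counting error of those of Matrigel-only and Palo, at log2 ratios of -0.12 to 0.10. The *Xylt1* share of the xylosyltransferase UMIs was 43.3, 46.5, 75.4 and 89.0% along the steps.

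*Chst11* and *Chsy1* took other courses. *Chst11* had 21.8, 35.7, 36.6 and 83.4 CPM in Vehicle. It differed between cells with neither gene and cells with *Sox9* (log2 ratio 0.71, 0.29 to 1.16). It did not differ detectably between those and cells with *Acan* but no *Col2a1* (0.04, -0.22 to 0.30), and differed again at *Col2a1* (1.19, 0.97 to 1.41). *Chsy1* had 76.8, 128, 173 and 203 CPM, with its largest log2 ratio at the *Sox9* step (0.74, 0.51 to 0.97). *Chsy1* was also higher with *Sox9* in Matrigel-only, at 95.7 against 62.6 CPM, and in Palo, at 77.7 against 60.6 CPM.

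*Csgalnact1* followed *Sox9* in all 3 libraries. It had 18.6 CPM without and 38.6 CPM with *Sox9* in Matrigel-only (log2 ratio 1.05, 0.79 to 1.32), 25.3 and 40.1 CPM in Vehicle (0.66, 0.27 to 1.08), and 23.9 and 36.9 CPM in Palo (0.63, 0.36 to 0.90). Among *Sox9*-positive cells without *Acan* its level did not differ between Vehicle and either library beyond counting error, at log2 ratios of 0.05 (-0.20 to 0.31) and 0.12 (-0.14 to 0.37). It was 41.2 and 46.9 CPM at the *Acan* steps. Since deeper cells show *Sox9* more often, the part of depth in these differences was not tested.

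*Papss1* had 55.0, 59.1, 75.0 and 118 CPM along the Vehicle steps, and *Xylt2* had 20.2, 20.3, 18.7 and 20.6 CPM, the flattest course of the 9. *Ugdh* had 181, 170, 194 and 247 CPM in Vehicle. At the *Sox9* step the Vehicle log2 ratio was -0.09 (-0.24 to 0.07), and *Ugdh* was lower with *Sox9* in the other libraries, at 335 CPM without and 241 CPM with it in Matrigel-only (-0.48, -0.56 to -0.39) and at 230 and 187 CPM in Palo (-0.30, -0.41 to -0.20). The *Ugdh* excess of Matrigel-only over Vehicle was thus seen on both sides of *Sox9*, at log2 ratios of Vehicle over Matrigel-only of -0.89 (-1.03 to -0.75) without and -0.50 (-0.61 to -0.39) with it.

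**Figure D3:**
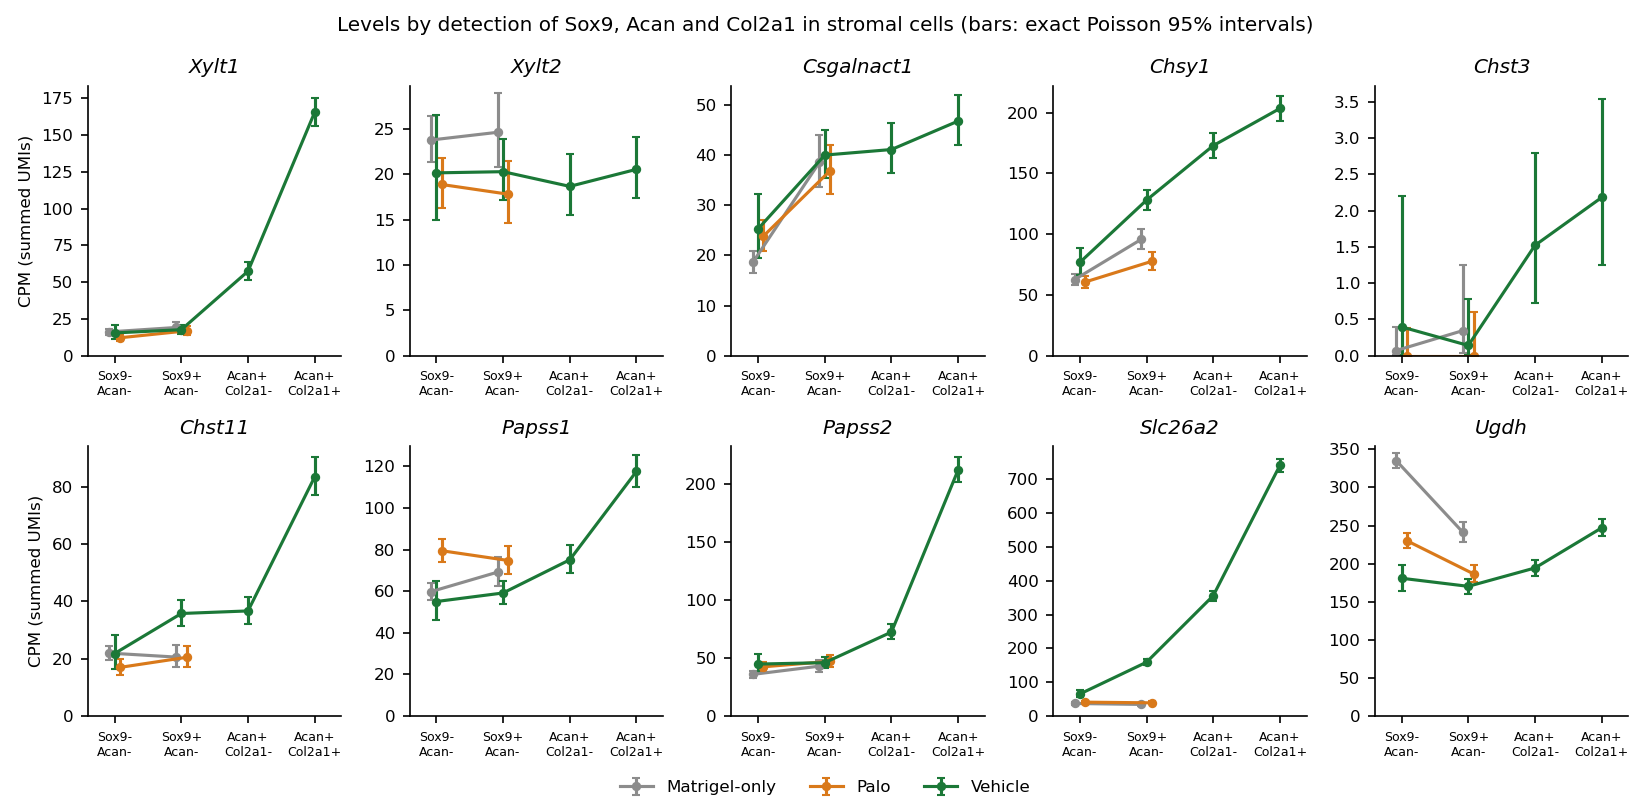
Level of each enzyme gene, in CPM on axes starting at 0, in stromal cells ordered by detection of *Sox9*, *Acan* and *Col2a1*, for Vehicle in 4 steps and for Matrigel-only and Palo in the 2 steps that held more than 4 cells. Bars are exact Poisson 95% intervals. *Slc26a2* climbs from 64.9 to 741 CPM in Vehicle and stays between 34.0 and 40.7 CPM in the other libraries, whereas *Xylt1* leaves their level only at the *Acan* steps.

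Stromal cells were also divided by *Pi16*, a gene of universal fibroblasts, found in 1153 stromal cells of Matrigel-only, 167 of Vehicle and 368 of Palo. In Vehicle 3 members were at least 2-fold lower in *Pi16*-positive than *Pi16*-negative cells, *Slc26a2* at 153 against 412 CPM, *Xylt1* at 35.9 against 79.1 CPM and *Papss2* at 52.1 against 111 CPM, where 5.32% of 10588 genes were lower and 8.63% higher. *Slc26a2* at 153 CPM in *Pi16*-positive Vehicle cells stood beside 40.8 CPM in those of Matrigel-only and 47.0 CPM in those of Palo. Cartilage genes moved with it, since the *Pi16*-positive Vehicle cells had *Acan* at 332 CPM and *Col2a1* at 642 CPM, against 1 *Acan* UMI and 0 *Col2a1* UMIs in Matrigel-only and 0 UMIs of both in Palo. Their part in the *Slc26a2* value was not tested. In those libraries 0 of 9 members passed 2-fold by *Pi16*, where 4.47% of 10612 genes in Matrigel-only and 4.69% of 10471 in Palo were higher and 4.59% and 3.59% lower. Among *Pi16*-negative cells, the log2 ratio of Vehicle over Matrigel-only was 3.72 (3.56 to 3.88) for *Slc26a2* and 0.95 (0.84 to 1.06) for *Chsy1*, so *Chsy1* no longer passed 2-fold there and 4 of 9 did (4.65% of genes higher, 9.75% lower). Over Palo 5 of 9 *Pi16*-negative ratios passed (5.78% higher, 7.9% lower), and 0 of 9 did for Palo over Matrigel-only (0.701% and 2.45%).

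Macrophages, taken as cells under 1% stromal UMIs with at least 0.3% of UMIs from 6 macrophage markers, numbered 4576, 2139 and 4097. *Slc26a2* had 49.4, 61.8 and 43.8 CPM in them, a log2 ratio of 0.32 (0.16 to 0.49) for Vehicle over Matrigel-only beside 3.42 in stroma. *Xylt2* had 61.3, 54.5 and 61.9 CPM in macrophages, and *Papss1* 33.3, 37.1 and 38.2 CPM. *Csgalnact1* was nearly confined to stroma, which held 97.4 to 98.4% of its UMIs in the 3 libraries. *Ugdh* was mostly stromal as well, with 84.2 to 90.6% of its UMIs there.

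*Xylt1* was the 1 member of 7 at 5 CPM or more in macrophages that was at least 2-fold higher in Vehicle, with 5.83 CPM in Matrigel-only, against 18.6 in Vehicle and 8.08 in Palo. The log2 ratio was 1.67 (1.29 to 2.06) over Matrigel-only, where 4.43% of 9839 genes were higher and 3.77% lower, and 1.20 (0.87 to 1.54) over Palo, where 4.87% of 9742 genes were higher and 2.95% lower. In Palo over Matrigel-only 0 of 7 passed, beside 1.44% of genes higher and 1.83% lower. *Acan* also had 10.1 CPM in Vehicle macrophages and 0 UMIs in those of the other libraries. *Xylt1* had 1.84 UMIs for each *Acan* UMI in Vehicle macrophages and 0.0587 in Vehicle stroma. Each of the other members likewise had more UMIs for each *Acan* UMI in macrophages, such as *Slc26a2* at 6.11 and 0.303 and *Papss1* at 3.67 and 0.0640. The *Xylt1* values are therefore not particular to that gene. Vehicle macrophages also held more UMIs of some other cell types. Endothelial markers summed to 45.3 CPM, against 5.50 in Matrigel-only and 4.88 in Palo, and basophil markers to 30.4, against 0.530 and 2.13. Chondrocyte markers, *Acan* among them, summed to 37.2, against 1.79 and 0.505, and osteoblast markers to 8.39, against 0.133 and 0.168. The sums of pericyte, neutrophil, and T and NK markers were also higher in Vehicle. Skeletal muscle markers were lower, at 4.37, against 6.30 and 7.75. Cells that met neither the stromal nor the macrophage limit numbered 2067, 1966 and 2016 in Matrigel-only, Vehicle and Palo. They had *Xylt1* at 21.5, 32.5 and 24.5 CPM. The paper's clusters placed more cells among macrophages than the limit used here, so these cells can include macrophages with few marker UMIs. Whether the macrophage *Xylt1* ratios depend on that limit was not tested. The part of stromal RNA or of other cell types in the macrophage *Xylt1* level was not tested either.

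The members were also placed among 78 other genes of glycosaminoglycan metabolism in 9 lists. In the linker list, 2 of 7 genes measured were at least 2-fold higher in Vehicle than in Matrigel-only, *Xylt1* and *Pxylp1*, and 0 were lower, where 5.52% of all genes were higher and 10.8% lower. The list median log2 ratio was 0.19, beside -0.04 over all genes. *Pxylp1*, which encodes the phosphatase that removes phosphate from the linker xylose, had 27.6 CPM in Matrigel-only, against 81.9 in Vehicle and 32.3 in Palo. Unlike *Xylt1* it was nearly level across the *Acan* split, at 78.5 CPM without and 84.2 CPM with *Acan* (log2 ratio 0.10, -0.03 to 0.23). It was therefore 2-fold higher already in Vehicle cells without *Acan*, at 1.51 (1.35 to 1.67) over Matrigel-only.

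Sulfation genes moved in both directions. Of 7 chondroitin and dermatan sulfotransferases and epimerases measured, *Chst11* was at least 2-fold higher and 3 were lower in Vehicle than in Matrigel-only, *Chst15*, *Dsel* and *Ust*, with a median of -0.42, beside 5.52% of all genes higher and 10.8% lower. *Chst15*, which adds a further sulfate to 4-sulfated units, had 17.8, 8.48 and 24.1 CPM in Matrigel-only, Vehicle and Palo. *Dsel*, related to the epimerase that turns chondroitin into dermatan, had 122, 45.6 and 104 CPM. Of 8 genes of sulfate uptake and PAPS measured, *Slc26a2* and *Papss2* were higher and 0 lower, with a median of 0.36.

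Among 10 genes of nucleotide sugar supply measured, 0 were at least 2-fold higher and 3 were lower in Vehicle than in Matrigel-only, beside 5.52% and 10.8% of all genes, with a median of -0.40. *Gfpt2* and *Uap1*, of the route to UDP-N-acetylglucosamine, were lower along with *Slc35d2*, a nucleotide sugar transporter, with 102, 32.6 and 54.7 CPM for *Gfpt2* and 339, 114 and 165 CPM for *Uap1*. *Uap1* was also 2-fold lower in Palo than in Matrigel-only, at a log2 ratio of -1.04 (-1.10 to -0.97). *Ugp2*, which makes UDP-glucose, the substrate of *Ugdh*, had 283, 275 and 187 CPM, and was 2-fold higher with *Acan* (347 CPM) than without (173 CPM).

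The lists for other chains and for breakdown had medians below 0 for Vehicle over Matrigel-only. Of 12 heparan sulfate genes measured 0 were higher and 1 was lower, *Ext1*, a heparan sulfate polymerase, at 212, 103 and 219 CPM, and the list median was -0.53. A single gene of 12 is near the 10.8% of all genes that were lower, so this count says nothing particular about the list. Of 4 keratan sulfate genes 0 were higher and 1 was lower, *B4galt4*, a galactosyltransferase (median -0.75). *Chst1*, a keratan sulfate sulfotransferase, had 17.2 CPM without and 5.53 CPM with *Acan*. Of 10 chondroitin breakdown genes 0 were higher and 2 were lower (median -0.30), *Arsb*, which removes 4-sulfate, at 50.4, 18.8 and 39.5 CPM, and *Idua*, the lysosomal iduronidase, beside 10.8% of all genes lower. The *Acan* split gave 0 higher and 0 lower among 8 breakdown genes measured, with a median of -0.09. Of all genes 3.02% were higher and 4.62% lower there, so these counts say nothing particular about breakdown genes.

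Among 6 core proteins measured, *Acan* and *Cspg4* were at least 2-fold higher in Vehicle than in Matrigel-only and *Dcn* was lower. Over all genes 5.52% were higher and 10.8% lower. *Acan* had 1 UMI in Matrigel-only, 13 in Palo and 29948 in Vehicle. *Cspg4* had 11.3, 79.6 and 15.3 CPM, and it is also a pericyte marker. The other pericyte markers listed stayed low, *Rgs5* at 0.60, 0.25 and 0.57 CPM and *Notch3* at 3.44, 5.93 and 4.04 CPM. *Dcn*, the decorin core, had 3903, 1766 and 3021 CPM, but it is among the genes that chose the stromal cells. Chain synthesis added *Chsy1* alone, with 1 of 5 genes higher and 0 lower (median 0.37), beside the same shares of all genes.

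Across the *Acan* split, 3.02% of all genes were higher and 4.62% lower. *Acan* defines the split and is not counted. Of the other listed genes that are no members, the higher ones were *Cspg4* (19.3 CPM without and 121 CPM with *Acan*), *Ugp2* and *Slc35d1*, 2 of 9 nucleotide sugar genes measured, and *Extl1*, 1 of 13 heparan sulfate genes. The lower ones were *Ust*, 1 of 7 chondroitin and dermatan sulfotransferases and epimerases, *Chst1*, 1 of 3 keratan sulfate genes, and *Hs6st2*, 1 of 13 heparan sulfate genes. Single genes of lists this short say nothing particular about the lists. No gene of chain synthesis passed, with 0 of 5 (median 0.25), and the linker list had *Xylt1* alone of 7 (median 0.10).

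**Figure D4:**
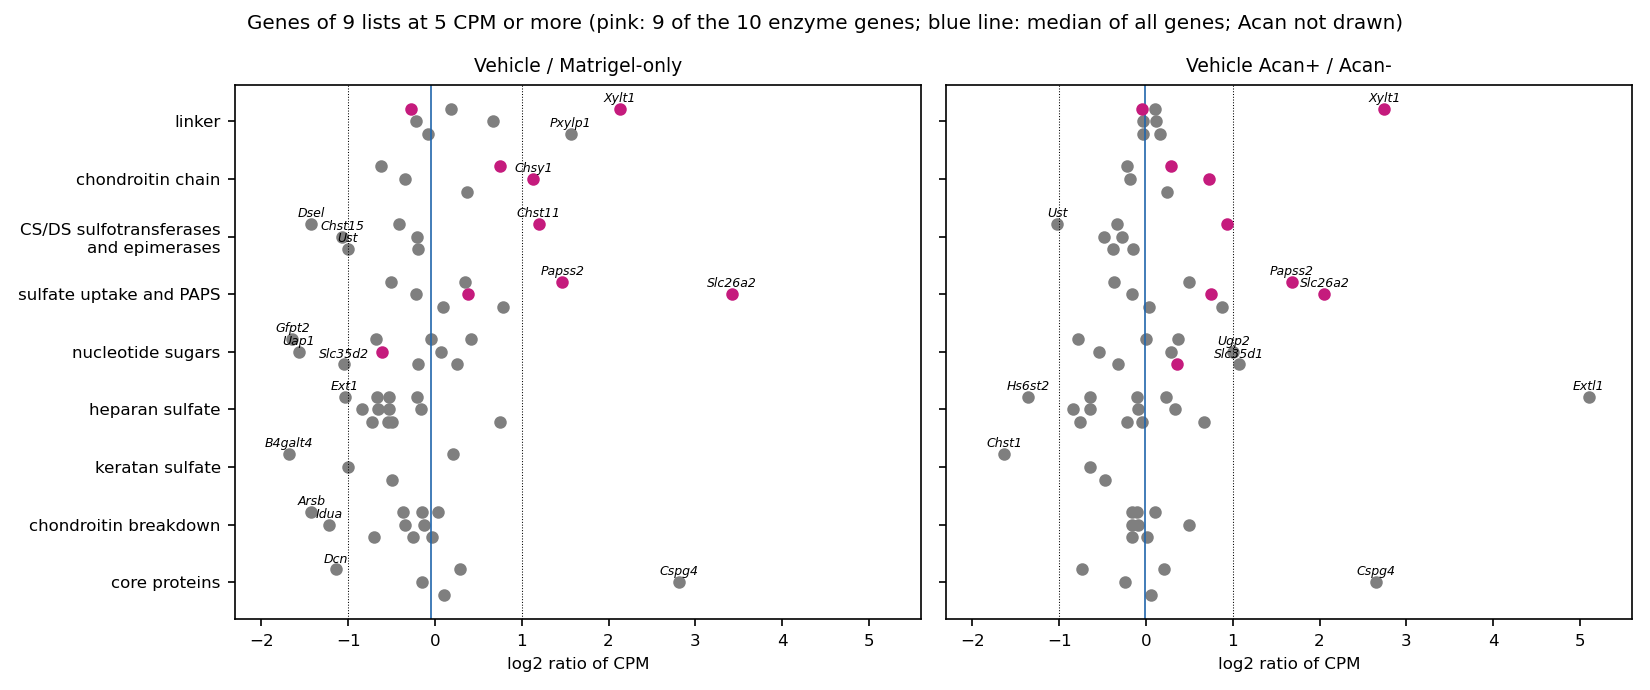
Log2 ratio of CPM for the genes of 9 lists at 5 CPM or more, for Vehicle over Matrigel-only and for *Acan*-positive over *Acan*-negative Vehicle cells; pink points are 9 of the 10 enzyme genes, grey points the other genes of the lists, dotted lines 2-fold and the blue line the median of all genes (-0.04 and -0.01). Genes past 2-fold are named, and *Acan*, which defines the split, is not drawn.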

How the data were processed

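Cells of day 5 masses were sequenced on the 10x Genomics platform, with 1 library for each of 3 groups. The authors deposited UMI counts per gene and barcode, made with Cell Ranger 3.0.2 on mm10 according to the submitters' notes, which also name Seurat 3. No normalization was applied to these counts. Cells with 200 to 6000 genes and at most 5% mitochondrial UMIs were kept. The upper limit left out 16, 104 and 21 cells of Matrigel-only, Vehicle and Palo, and no doublet caller was run. UMIs were summed over the cells of a group and divided by their total (CPM). Levels carry exact Poisson, pair shares exact binomial (Clopper-Pearson) and ratios conditional binomial 95% intervals. For thinned shares the Clopper-Pearson formula was applied to an expected number of cells, so those intervals are approximate. UMIs mark molecules, but intervals cover counting error only. A gene was counted as higher or lower at 2-fold, with at least 5 CPM in either group, and a group at 0 was set to 3 counts. Thinned shares used the hypergeometric formula.

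The members and lists were chosen with earlier results of these data known. All members were named. Some genes of the lists are not reported here and entered no list count or median. Of the listed genes, those at 20 CPM or more in a group and past 2-fold were eligible, at most 4 a list; *Chst12*, *Ust*, *Slc35d2*, *B4galt4*, *Idua*, *Slc35d1*, *Extl1*, *Hs6st2*, the pair shares and the cells with 1 or 2 *Acan* UMIs were chosen after values were seen. Gene positions came from the mm10 annotation. RefSeq promoters of 7 of the 10 members, in 9 entries, were used, and those of the other members were not matched or are not reported here. Simulated counts were used to check the scripts. Sums and intervals used scipy 1.17.1, numpy 2.4.6 and pandas 2.3.3 in Python 3.11.15, plots used matplotlib 3.10.9, and edgeR 4.0.16 in R 4.3.3 gave TMM factors alone.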

Additional observations from a re-analysis of the deposited data

Results flagged for a closer look

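In all, 3 genes moved in opposite directions in stromal cells and macrophages of the same libraries, and none of these differences between cell classes was tested, since each group is 1 library. *Chsy1* in Vehicle over Matrigel-only had a log2 ratio of 1.13 in stromal cells and -0.22 (-0.43 to -0.01) in macrophages. *Xylt1* in Palo over Matrigel-only had -0.29 (-0.54 to -0.04) in stromal cells and 0.47 (0.08 to 0.87) in macrophages. *Papss2* in Palo over Matrigel-only had 0.22 (0.07 to 0.37) in stromal cells and -0.39 (-0.75 to -0.03) in macrophages. The ratios of Palo over Matrigel-only are all within 2-fold. The genes were picked, among members at 5 CPM or more in both cell classes, for intervals on opposite sides of 0. Over all genes, the median log2 ratio in macrophages was -0.04 for Vehicle and -0.16 for Palo, each over Matrigel-only. The macrophage intervals of *Chsy1* and *Papss2* held these medians, so their macrophage ratios are not set apart from those of all genes. In stromal cells the median for Palo over Matrigel-only was -0.04, at the upper end of the *Xylt1* interval. *Xylt1* had 19.5 CPM in *Pi16*-positive stromal cells of Matrigel-only and 14.0 in those of Palo, beside 14.6 and 14.0 in *Pi16*-negative cells. *Papss2* had 32.6 and 37.6 CPM, beside 43.0 and 46.4. The part of *Pi16*-positive cells in the stromal ratios was not tested.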

How the results depend on the processing

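The 10 genes were recomputed under 14 alternatives to the cell filter, the stromal limit, the scaling, the weighting of cells, the limit on low levels, the floor and the *Acan* split. All 156 counts of members past 2-fold stayed within 1.5 times the reported count. In the *Acan* split 4 in place of 3 members were higher at 3 or more UMIs or after thinning (*Chst11* added). The same count came with lower level limits (*Chst3* added). *Chst3* was likewise added with those limits in Vehicle over Matrigel-only and in Vehicle over Palo. Of 777 log2 ratios, 766 moved by less than their counting interval and 11 moved further. The sign changed in 8 of the 777, which belonged to 4 ratios whose reported intervals held 0: *Papss1* in Vehicle over Palo (-0.02 with cells weighted equally), *Xylt2* in the *Acan* split (up to 0.05), and *Xylt1* and *Chst3* in *Acan*-negative Vehicle cells over Matrigel-only (down to -0.09 and -0.47). No ratio past 2-fold changed sign. Values that moved included *Ugdh* in Vehicle over Matrigel-only, at -0.54 with TMM factors, and *Slc26a2* in *Acan*-negative Vehicle cells over Matrigel-only, at 1.75 with cells weighted equally and 2.10 with the split after thinning. *Chst3* in Vehicle over Matrigel-only was at 0.93 with 1 CPM added. No ratio could be formed for *Chst3* on the equal weighting of cells where a group was at 0. Leaving out a replicate could not be tried with 1 library a group. No paired analysis was possible because each group had 1 library and the labels carry no replicate numbers. Depth limits *Chst3* most, with 28 UMIs in all Vehicle stromal cells.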
